A study of Arabidopsis thaliana with 12 samples.

Results

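AT1G01080 is a nuclear gene of Arabidopsis thaliana for an RNA-binding protein with RRM domains, read here on 1 array probe whose annotation names this gene and no other. It was 1 of 691 genes with such a probe, on a table of 3439 probes, and 870 probes named several genes, which gave 1561 listed features in all. Total RNA came from 12 samples of wild-type plants of the Landsberg ecotype kept for 48 h in blue light, 6 at 20 µE and 6 at 200 µE, units of photon flux. Both groups share genotype, ecotype, light colour and duration, and they differ in intensity alone as far as the labels say. The labels name neither the tissue nor the plants' age, nor how many plants made up a sample. The gene was chosen by its level and its change in these same 12 columns, so its level and its change are described and not tested.

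Plastid RRM proteins are made in the cytosol and imported into chloroplasts, where they bind many plastid transcripts at once. The RRM, or RNA recognition motif, is a small fold that holds single-stranded RNA on its sheet surface. In Arabidopsis several such ribonucleoproteins protect chloroplast mRNAs from nucleases and take part in the editing and splicing of those mRNAs, and some are known to matter in the cold. The gene table used for names lists 3 transcripts and 3 proteins for AT1G01080 and no description of its product, so that its class is background knowledge and not something the array could check. Which of the 3 transcripts the probe reads is not known here.

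Values are intensities in arbitrary units as the authors deposited them. The column means lay between 0.814 and 1.04 units, 12.4 to 18.3% of a column's values were listed at exactly 0, and the highest value of a column lay between 68.6 and 100 units, the latter apparently a ceiling. The column median was 0.504 ± 0.079 units in the 20 µE group and 0.195 ± 0.020 in the 200 µE group (SD over the 6 columns), so that the shape of the distribution differed between the groups and every change depends on the scaling. Neighbouring columns of a group (1 with 2, 3 with 4, 5 with 6) deviated from the group mean together and are called couples. SDs are over the 6 columns of a group, and SEs are given over columns and over the 3 couple means. The number of arrays limits the precision. In bulk RNA, fewer cells of a type and less RNA per cell cannot be told apart.

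AT1G01080 was brighter in every 200 µE column than in any 20 µE column. At 20 µE its probe measured 1.18, 1.24, 1.55, 1.59, 1.26 and 1.14 units in columns 1 to 6. At 200 µE it measured 4.04, 4.21, 3.99, 4.49, 5.48 and 5.56 units. The groups did not overlap, the highest 20 µE column being column 4 and the lowest 200 µE column being column 3. The group means were 1.33 ± 0.195 units at 20 µE and 4.63 ± 0.715 at 200 µE, a ratio of 3.49, and over couple means the SDs were 0.212 and 0.776 units. No column was listed at 0 or near the ceiling, so that neither end of the scale bounds these values. Of the 1561 features, 4.87% had all 6 deposited values at 200 µE above all 6 at 20 µE, and among the 691 genes 37 did, AT1G01080 included.

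**Figure D1:**
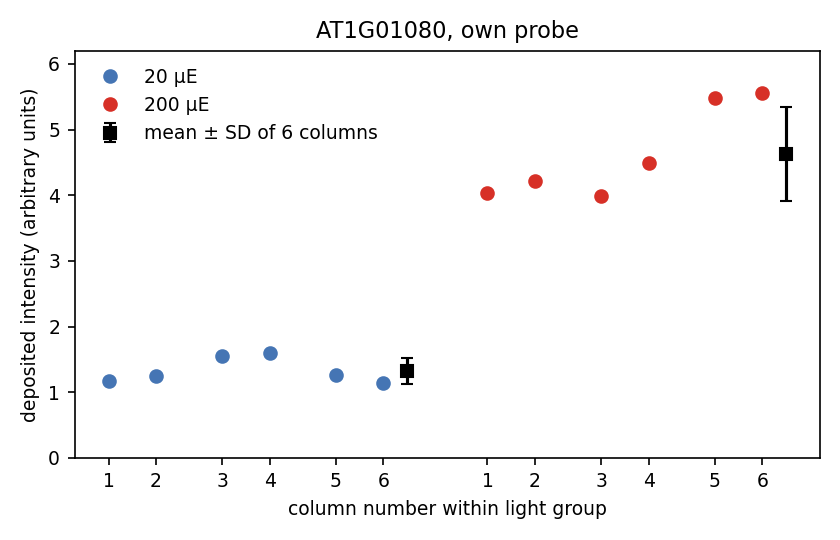
Deposited intensity of the AT1G01080 probe (arbitrary units) against column number for the 20 µE (blue) and 200 µE (red) groups, with the mean ± SD of 6 columns as black squares; neighbouring points form couples. The 200 µE columns lie between 3.99 and 5.56 units and all 20 µE columns between 1.14 and 1.59 units.

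The spread within a light level was small beside the distance between levels. The coefficient of variation was 14.7% at 20 µE and 15.4% at 200 µE. Columns of a couple differed by at most 1.10-fold at 20 µE and 1.13-fold at 200 µE, and columns of different couples by at most 1.40-fold in either group. Columns 3 and 4 were the brightest pair at 20 µE, with a mean of 1.57 units, whereas columns 5 and 6 were the brightest at 200 µE, with 5.52 units. The ratio of same-numbered columns therefore varied: it was 3.43 and 3.38 for numbers 1 and 2, 2.57 and 2.82 for numbers 3 and 4, and 4.36 and 4.89 for numbers 5 and 6. All 6 ratios were above 1, and the couples differed in size more than the columns within a couple did.

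The place of the probe in the intensity order moved up as well. An order within a column does not depend on any scaling that keeps it, although probes differ in brightness for the same amount of RNA, so that a rank is not an abundance. Among 3439 probes AT1G01080 held ranks 662, 615, 433, 432, 386 and 454 in the 20 µE columns, rank 1 being the brightest. In the 200 µE columns it held ranks 107, 102, 123, 102, 77 and 78. Between 11.2 and 19.2% of probes were brighter than it at 20 µE, and between 2.21 and 3.55% at 200 µE. Among the 691 single-gene features its rank lay between 71 and 132 at 20 µE and between 17 and 26 at 200 µE, so that in rank too the groups were apart. After quantile normalisation, which keeps the order within a column, 15.6% of all features had every 200 µE column above every 20 µE column. The fall in the median share of brighter probes was 9.93 percentage points, and 169 of the 692 single-gene probes had a larger fall, a measure in which a probe that starts among the brightest has little room to move.

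The share of a column's summed intensity gives the same picture on a linear scale. AT1G01080 held 0.0394 ± 0.0042% of the sum at 20 µE, with columns from 0.0343 to 0.0446%, and 0.152 ± 0.034% at 200 µE, with columns from 0.120 to 0.196%. Columns 5 and 6 were the highest at 200 µE. In multiples of the column's own median, the probe stood at 2.66 ± 0.346 at 20 µE and at 24.2 ± 6.41 at 200 µE, where the column medians themselves were lower. In multiples of the 75th percentile it stood at 1.44 ± 0.191 and 8.84 ± 2.37.

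**Figure D2:**
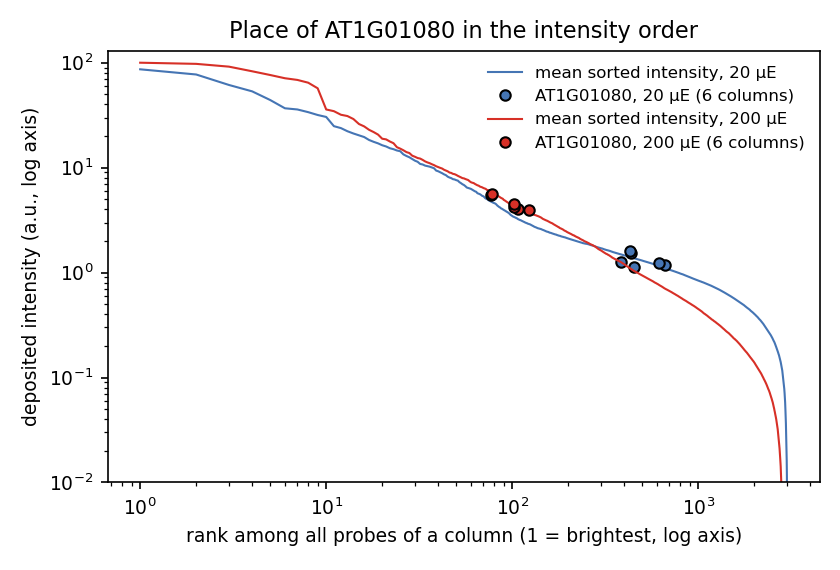
Deposited intensity (log axis) against rank among 3439 probes (log axis, 1 = brightest); lines are the mean sorted intensities of 6 columns per group and outlined points are AT1G01080 in each column. The lines cross at rank 275, and the gene lies below that place in the order at 20 µE (ranks 386 to 662) and above it at 200 µE (ranks 77 to 123).

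The 2 groups' intensity curves crossed between the places that the gene held. From rank 275 downwards the mean sorted intensity was higher at 20 µE, and above that rank it was higher at 200 µE. Rank 444 corresponded to 1.38 ± 0.180 units at 20 µE and 1.06 ± 0.086 at 200 µE, and rank 102 to 3.39 ± 0.104 and 4.27 ± 0.228 units (n = 6 columns). Moving from rank 444 to rank 102 thus spans a narrower range of intensity in the 20 µE columns than in the 200 µE columns. These are the stretches that quantile normalisation, which gives every column the same sorted values, averages.

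AT1G01080 was higher at 200 µE under all 7 scalings tried, by 1.80 to 3.16 on the log2 scale. After quantile normalisation, its log2 values were -0.19, -0.10, 0.30, 0.30, 0.44 and 0.24 in columns 1 to 6 at 20 µE. At 200 µE they were 1.87, 1.93, 1.71, 1.93, 2.40 and 2.39. The groups remained apart by 1.27 between the highest 20 µE and the lowest 200 µE column, as they were for 15.6% of all features under that scaling. The log2 change was 1.87 ± 0.16 (SE over columns, 0.24 over couple means). Quantile normalisation over the listed features alone gave 1.92, and a pseudocount in place of the floor for zeros gave 1.86. These 3 values differ by less than the SE.

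Scalings that multiply a whole column gave other sizes. Without normalisation the log2 change was 1.80 ± 0.12, after division by the column sum 1.93 ± 0.14, after centring on the 75th percentile 2.59 ± 0.17 and after centring on the median 3.16 ± 0.17 (SE over columns). Each such setting moves all features by the same amount, so the distance to the median change of all features was 3.26 in all 4, the median change itself being -1.46 without normalisation. After quantile normalisation the median change was 0.00 and the distance 1.87. The place of AT1G01080 among the 691 genes by size of change was the 9th in each of the 4 multiplying settings and the 52nd after quantile normalisation. The gene was thus among 107 genes with a positive log2 change as deposited, and among 295 after quantile normalisation.

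**Figure D3:**
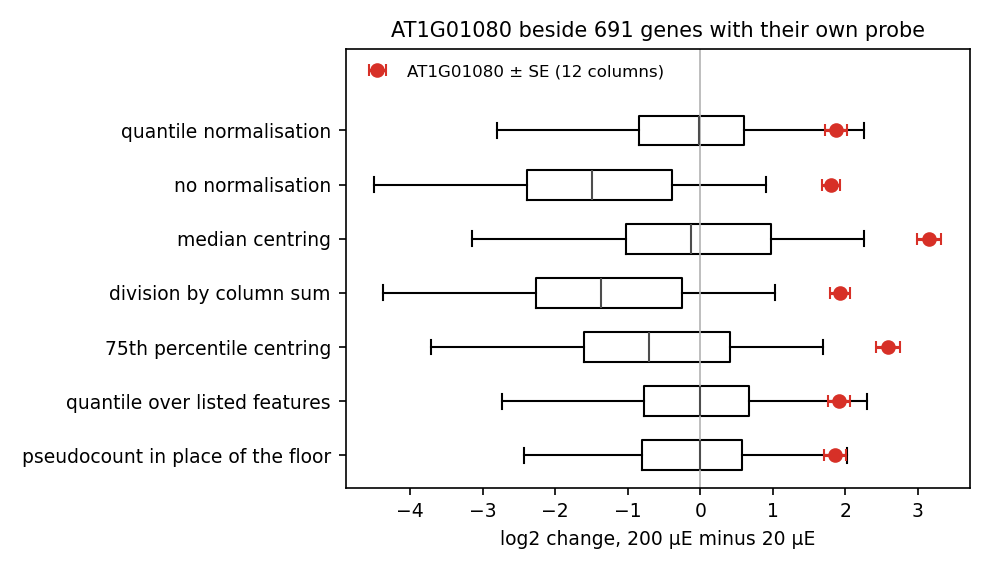
Log2 change from 20 to 200 µE of AT1G01080 (red, ± SE over 12 columns) under 7 scalings beside the distribution over 691 genes with a probe of their own (box, quartiles; line, median; whiskers, 5th to 95th percentile). The gene is higher at 200 µE in each row, from 1.80 without normalisation to 3.16 after median centring, while the median of the genes moves with the scaling.

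The within-group spread also changed with the scaling. At 20 µE the SD of the log2 values was 0.25 after quantile normalisation, 0.21 without normalisation, 0.19 after median centring and 0.15 after division by the column sum. At 200 µE the SDs were 0.29, 0.22, 0.36 and 0.31 in the same order. The 200 µE columns 5 and 6 were the highest under all 7 scalings. At 20 µE columns 1 and 2 were the lowest after quantile normalisation, whereas column 6 was the lowest as deposited.

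A second probe names AT1G01080 together with AT1G60000, another gene for a plastid RRM ribonucleoprotein, and its values went the other way in deposited units. This shared probe measured 1.24, 1.21, 1.57, 1.50, 0.660 and 0.623 units in columns 1 to 6 at 20 µE. At 200 µE it measured 0.514, 0.555, 0.591, 0.611, 0.494 and 0.444 units. The groups did not overlap, as for 43.5% of all features in this direction, but 20 µE columns 5 and 6 lay close to the 200 µE columns. Its means were 1.13 ± 0.407 and 0.535 ± 0.063 units, a ratio of 0.471. The table does not say which of the genes the signal comes from.

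The change of the shared probe was not settled by the tests. After quantile normalisation its log2 change was -0.30 ± 0.20 and did not pass (limma, adjusted p = 0.23 with 12 columns and 0.50 with couple means), in a fit in which 49.2% of features passed. Without columns 5 and 6 of both groups it was -0.60 and passed (limma, adjusted p = 0.0045). It also passed without normalisation (-1.002, limma, adjusted p = 0.0027), after division by the column sum (-0.87) and with array weights (-0.40). Under median centring its direction turned, to 0.36 (limma, adjusted p = 0.083), so that no direction is given for it. In the intensity order the shared probe held ranks 427 to 1092 at 20 µE and 802 to 955 at 200 µE, which overlap.

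The pair of probes can also be set against each other within each column, where any factor common to the column cancels. The log2 of the AT1G01080 probe over the shared probe was -0.08, 0.04, -0.02 and 0.08 in columns 1 to 4 at 20 µE and 0.93 and 0.87 in columns 5 and 6. At 200 µE it was 2.97, 2.92, 2.75, 2.88, 3.47 and 3.65. Columns 5 and 6 were the highest in both groups. The groups were apart, as the AT1G01080 probe alone was, by 1.32 without normalisation. AT1G01080 was chosen for its change, so the separation of the ratio is not read as a result. The share of features with a ratio apart was not computed. The mean log2 ratio differed between the groups by 2.80 ± 0.24 (SE over columns, 0.38 over couple means), a 6.98-fold shift of the ratio. Without normalisation the log2 change of AT1G01080 lay 3.26 above the median change of all features, and that of the shared probe 0.46 above it. A shift of this size is therefore not particular to the shared probe. The ratio describes unequal change of the 2 probes and does not show which of them moved.

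Only 1 further plastid RRM ribonucleoprotein gene had a probe of its own. Of the 9 other genes of that list, AT4G09040 was measured alone, AT1G60000 by the shared probe, and the other 7, among them CP29, RBP31, CP31B and CP33, by neither kind of probe. AT4G09040 measured 0.425, 0.490, 0.688, 0.705, 1.16 and 1.40 units in columns 1 to 6 at 20 µE. At 200 µE it measured 0.234, 0.156, 0.247, 0.230, 0.226 and 0.264 units. All 200 µE columns lay below all 20 µE columns, as for 43.5% of all features, and the 20 µE couples were far apart.

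AT4G09040 did not pass after quantile normalisation, with a log2 change of -0.58 ± 0.48 (limma, adjusted p = 0.35 with 12 columns, 0.60 with couple means). That change was -0.26 without 20 µE column 6, -0.34 without 20 µE column 5 and -0.0019 when the last couple of each group was left out. It passed as lower without normalisation (-1.73, limma, adjusted p = 0.00012), after division by the column sum (-1.60, 0.00048) and after centring on the 75th percentile (-0.94, 0.036), settings that lower most features. With array weights its change was 0.20 (limma, adjusted p = 0.57). Within columns, the log2 of AT1G01080 over AT4G09040 was 0.83 ± 0.73 at 20 µE, between -0.30 and 1.47, and 4.36 ± 0.28 at 200 µE, between 4.01 and 4.75. That ratio shifted by 3.53 ± 0.32 (SE over columns, 0.48 over couple means). Beside the distance of 3.26 between AT1G01080 and the median change of all features, such a shift is not particular to AT4G09040.

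**Figure D4:**
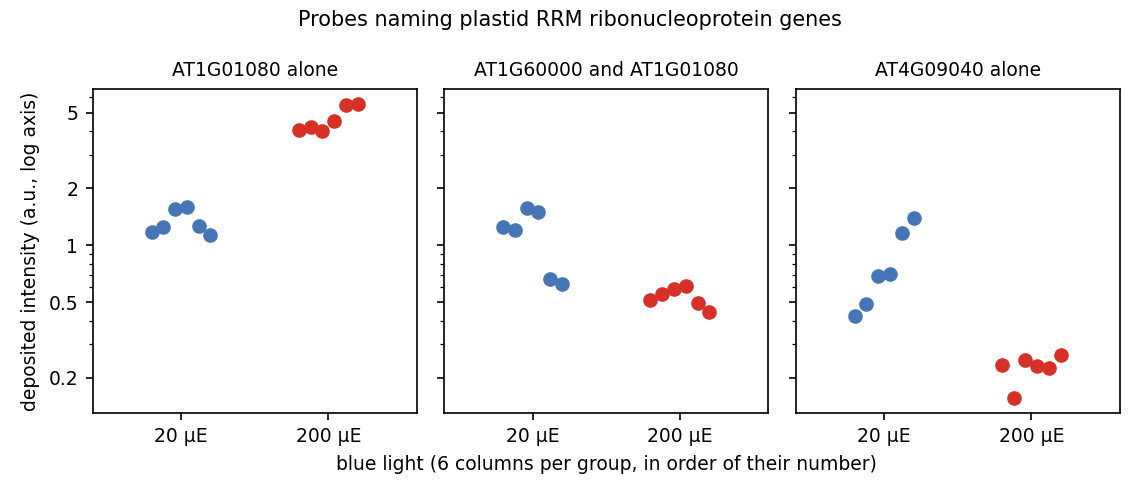
Deposited intensity (arbitrary units, log axis) in the 6 columns at 20 µE (blue) and the 6 at 200 µE (red) for the AT1G01080 probe, the probe naming AT1G60000 and AT1G01080, and the AT4G09040 probe. The first is higher at 200 µE (3.99 to 5.56 against 1.14 to 1.59 units), while the other panels show lower deposited values at 200 µE (0.444 to 0.611 and 0.156 to 0.264 units).

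The other listed factors that act on plastid RNA were covered, where at all, by shared probes alone. The list is not complete: CRR21, an editing factor described below, is not on it and had a probe of its own. Of 30 genes for RNA processing, splicing, editing and stability in plastids, 29 were found in the gene table. None of these 29 had a probe of its own, and 5 were named on a probe with other genes. Together with AT4G09040 and the probe of AT1G60000 and AT1G01080 these made 7 features, of which 0 passed as higher and 1 as lower over 12 columns (limma, adjusted p under 0.05; 2 of the 7 at an unadjusted p under 0.05). Over all features 23.1% passed as higher and 26.1% as lower. The median log2 change of the 7 was -0.23, against 0.00 over all features. As deposited, 4 of the 7 passed as lower and 0 as higher, against 67.6% and 7.24% of all features, and under median centring 1 passed as lower and 4 as higher, against 35.7% and 32.7%. Their median changes were -0.49 and 0.86 in these settings.

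The probe that passed names AT2G18940, a pentatricopeptide repeat protein, together with AT1G76280 and AT5G02860. Pentatricopeptide repeat proteins bind organelle transcripts by their sequence. The probe fell, from 0.508, 0.406, 0.478, 0.443, 0.419 and 0.365 units in columns 1 to 6 at 20 µE to 0.071, 0.038, 0.064, 0.038, 0.084 and 0.010 at 200 µE. The groups did not overlap, as for 43.5% of all features in this direction, and the 200 µE values are near 0. The log2 change was -1.497 ± 0.34 (limma, adjusted p = 0.0032 with 12 columns, 0.0085 with couple means, 0.0497 with couples paired), and the features called over couple means were 21.1% of all. Without normalisation its change was -3.36.

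The remaining 4 shared probes did not pass in the test over 12 columns. The call moved with the setting for each of them. The probe of RH39, a DEAD-box RNA helicase, and AT3G06980 measured 2.02 ± 0.198 units at 20 µE and 1.83 ± 0.390 at 200 µE, and passed when the replicate number was a block (log2 change -0.23, limma, adjusted p = 0.035 against 0.12 without it). Without replicate 4 at 20 µE it passed as well (-0.29, limma, adjusted p = 0.039), as it did with array weights (-0.34, limma, adjusted p = 0.0084). With couple means it did not pass (limma, adjusted p = 0.39, and 0.23 when couples were paired). It passed as higher after median centring (1.195, limma, adjusted p = 1.1e-05) and after centring on the 75th percentile (0.63, limma, adjusted p = 0.0020), so no direction is given for it. The probe of AT4G37510 and AT2G48121 had a log2 change of 2.10 ± 0.84 with 1 column at 20 µE listed at 0, and likewise passed with the block (limma, adjusted p = 0.011 against 0.052). It did not pass with couple means (limma, adjusted p = 0.27, and 0.12 when couples were paired). In deposited units its means were 0.268 ± 0.193 and 0.304 ± 0.203, and its log2 change was 0.51 without normalisation and 0.63 after division by the column sum (limma, adjusted p = 0.58 and 0.47). After centring on the 75th percentile it was 1.30 (limma, adjusted p = 0.12). The probe passed as higher after median centring (1.86, limma, adjusted p = 0.034), with quantile normalisation over listed features (2.18, 0.039) and with array weights (1.23, 0.025). It also passed with dim features or features at 0 left out (limma, adjusted p = 0.028 and 0.034). Its 2 columns 5 and 6 at 20 µE were listed at 0 and 0.047 units, against 0.337 to 0.437 in the others. It passed without column 1 or 2 at 20 µE or column 6 at 200 µE (limma, adjusted p between 0.040 and 0.046), and when the last couple of each group was left out (log2 change 1.38, limma, adjusted p = 0.0036). The probe of AT5G08720 and AT4G01650 was the brightest of the 7, with 7.65 ± 2.06 and 8.22 ± 1.44 units, and its columns overlapped. It passed as higher after median centring (1.49, limma, adjusted p = 0.00033) and after centring on the 75th percentile (0.92, limma, adjusted p = 0.0083). The probe of AT1G73530, AT5G54580 and AT2G37510 measured 0.859 ± 0.144 and 0.610 ± 0.093 units, and its log2 change of 0.32 ± 0.24 turned to -0.49 without normalisation, where it passed as lower (limma, adjusted p = 0.013). It passed as higher after median centring (0.86, limma, adjusted p = 0.0026) and with array weights (0.42, limma, adjusted p = 0.0095), so no direction is given for it either. It also passed as higher without column 6 at 20 µE (0.51, limma, adjusted p = 0.024) and when the last couple of each group was left out (0.54, limma, adjusted p = 0.0038).

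Genes of the other lists could not be followed. None of the 21 members of the plastid transcription list, which holds proteins of the plastid-encoded polymerase complex and sigma factors, and none of the 25 RRM proteins outside the plastid, such as GRP7 and the poly(A) binding proteins, was named on any probe. Of 18 leaf and root markers 1 had a probe of its own, the light-harvesting gene LHB1B2, and 2 were on shared probes only. The tissue was not checked against markers.

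On the chromosome, AT1G01080 stands between AT1G01070 and AT1G01090 by locus number. Of the 36 loci from AT1G01010 to AT1G01330 in the gene table, 2 had a probe of their own, AT1G01080 and AT1G01250. AT1G01250, a gene for a transcription factor of the ERF/AP2 family, measured 1.92, 1.66, 2.11, 1.70, 1.24 and 1.11 units in columns 1 to 6 at 20 µE. At 200 µE it measured 0.640, 0.578, 0.423, 0.362, 0.497 and 0.385 units. The groups were apart, in the direction opposite to AT1G01080, as for 43.5% of all features. It fell by 1.23 ± 0.16 on the log2 scale (limma, adjusted p = 0.00011 with 12 columns, 0.020 with couple means), where 26.1% of all features were called lower with 12 columns. The call was lost when couples were paired (limma, adjusted p = 0.060). Its change was -0.39 after median centring and -1.75 without normalisation (limma, adjusted p = 0.040 and 7.8e-06).

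The profiles most like that of AT1G01080 were sought among the 505 other genes whose mean log2 value exceeded the 25th percentile of listed features. Each gene's own mean over the 12 columns was subtracted from its quantile-normalised log2 values, and the root mean square difference from AT1G01080 was taken over the 12 columns. The 5 nearest were AT3G51320 (0.22), AT3G15140 (0.30), CRR21 (0.32), ILA (0.34) and AT5G53920 (0.34), against 0.36 for the next gene and a median of 1.14. They were chosen for their likeness, so that their changes are descriptions. CRR21 encodes a pentatricopeptide repeat protein needed for editing of a plastid transcript, and ILA a large HEAT repeat protein of the cytosol.

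AT3G51320 was nearest. It measured 0.519, 0.501, 0.581, 0.755, 0.509 and 0.343 units in columns 1 to 6 at 20 µE and 1.29, 1.24, 1.03, 1.08, 1.81 and 1.36 units at 200 µE. As for AT1G01080, column 4 was the highest at 20 µE and columns 5 and 6 were the highest at 200 µE. The groups were apart too, as for 4.87% of all features in this direction. AT3G15140 measured 0.438 to 0.687 units at 20 µE and 0.942 to 1.54 at 200 µE, with columns 5 and 6 the lowest at 200 µE, unlike AT1G01080. The ratio of the group means was 2.43 for AT3G51320 and 2.40 for AT3G15140, against 3.49 for AT1G01080.

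The likeness depended on the scaling for some of these genes. CRR21 had a log2 change of 1.30 after quantile normalisation and of 0.06 without it, its deposited means being 0.414 ± 0.089 and 0.428 ± 0.053 units. ILA and AT5G53920 had changes of 1.76 and 1.74 with quantile normalisation and 0.81 and 0.84 without it. AT3G51320 and AT3G15140 had changes of 2.08 and 1.997, and 1.30 and 1.24 without normalisation, where AT1G01080 had 1.80. Under median centring the 5 changes lay between 1.42 (CRR21) and 2.65 (AT3G51320), against 3.16 for AT1G01080.

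**Figure D5:**
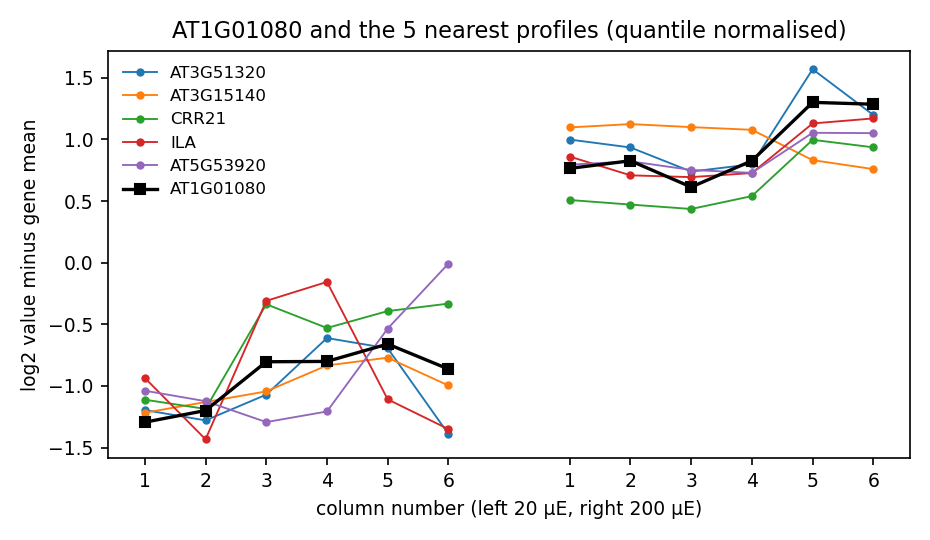
Quantile-normalised log2 value minus the gene's own mean, against column number (left 20 µE, right 200 µE), for AT1G01080 (black squares) and the 5 genes with the smallest root mean square difference from it. AT3G51320, at 0.22, follows AT1G01080 most closely, with both highest in columns 5 and 6 at 200 µE.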

How the data were processed

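The deposited table holds linear intensity per probe, in arbitrary units; how the authors corrected background and scaled it is not given in the sources used here. Groups and replicate numbers came from the sample titles. Probes were named through the platform annotation and a RefSeq gene table (assembly TAIR10.1), in which 690 of 692 single-gene identifiers were found; 870 probes named several genes and 1877 were not listed. The array's genome build is not named, so coordinates were not used here. Values of 0 were replaced, column by column, by the 1st percentile of that column's positive values, and quantile normalisation of the log2 values used all probes. The 1561 listed features were fitted with limma 3.58.1 (lmFit, eBayes; R 4.3.3), two-sided, 200 µE minus 20 µE, with Benjamini-Hochberg adjustment over all of them and a threshold of 0.05. The procedure was tried on simulated data with independent columns. That trial does not cover columns that deviate together, as couples and same-numbered columns do here. The words rose and fell are used for features that passed both over 12 columns and over couple means.

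Same-numbered columns of the groups deviated together (correlations 0.157 to 0.485), and all 12 columns correlated best with their own number of the opposite group. No label explains the numbers, so the main fit over 12 columns held no block and ignored this pairing. The numbers were read as pairs, on the data alone, only in alternative fits. With the replicate number as a block 839 features passed, against 768 in the main fit. Within couples the deviations correlated at 0.144 to 0.748, against at most 0.071 between couples. No label states that samples are from separate plants, so p-values measure a spread that may be technical. The gene and the lists were chosen with earlier results of these data known. Genes were named by a rule: AT1G01080, list members with a probe, the 5 nearest profiles and neighbouring loci. Alternatives were other normalisations, a pseudocount of 0.0138, filters, blocks, couple means, array weights, a variance trend, leaving out columns and a threshold of 0.01.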

Additional observations from a re-analysis of the deposited data

Results flagged for a closer look

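In 56 sets of 6 columns of the named features (14 features, in deposited and in quantile-normalised units, at each light level), 3 held a column apart from the other 5 by Dixon's ratio of gap to range. For independent columns chance would give about 2.8 (1 in 20). Columns of a couple deviate together and each feature is counted in both units, so that number is only a rough guide. None of the 3 sets concerned AT1G01080. All 3 were in deposited units. AT4G09040 measured 0.156 units in column 2 at 200 µE, against 0.226 to 0.264 in the others. The probe of AT1G73530, AT5G54580 and AT2G37510 measured 1.14 units in column 6 at 20 µE, against 0.740 to 0.843. AT5G53920 measured 0.644 units in column 6 at 20 µE, against 0.461 to 0.508.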

How the results depend on the processing

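AT1G01080 was higher at 200 µE under all 29 alternatives, with log2 changes between 1.78 and 3.16. Among these, the filters, blocks, couple means and variance trend cannot alter its difference of means, which stayed at 1.87. The change moved by more than the spread between columns (SD 0.27) with median centring (3.16) and 75th percentile centring (2.59). It lay between 1.80 and 1.94 when single columns were left out. The fall of AT1G01080 in the share of brighter probes was 9.93 percentage points over all probes, 9.39 over listed features and 9.84 over single-gene features. The count of features past the threshold, 768, became 1168 without normalisation and 1156 after division by the column sum. It was 1085 under 75th percentile centring, 1068 under median centring and 1013 with array weights. Over couple means it was 329, and 243 when those were paired by couple. Over couple means without features at 0 in all columns (added after seeing the data) it was 380. At an adjusted p under 0.01, 563 features passed. The count was 557, 577 and 861 when the first, second or last couple of each group was left out. It was 710 to 801 when single columns were left out, and 670 to 839 in the other settings. Of the 7 plastid RNA features 1 passed; this became 4 without normalisation, 5 under median centring, 3 after division by the column sum, 4 under 75th percentile centring, 2 with quantile normalisation over listed features, with dim features left out or with features at 0 left out, 3 with the replicate block, 5 with array weights and 4 without columns 5 and 6 of both groups. It was 1 to 2 when single columns were left out, 2 without 20 µE column 1, 2, 4 or 6 or 200 µE column 6. The cause was not tested. The replicate block changed no other call among the named features than those of the RH39 probe and the AT4G37510 probe.

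Some log2 changes turned: the probe of AT5G08720 and AT4G01650 (-0.017) gave 0.13 without normalisation, 1.49 under median centring, 0.26 after division by the column sum, 0.92 under 75th percentile centring, 0.22 with quantile normalisation over listed features, -0.087 to 0.050 when single columns were left out (above 0 without 20 µE column 5 or 6 or 200 µE column 1, 2 or 5), and 0.076 and 0.11 when the first or the last couple of each group was left out. The probe of AT1G73530 gave -0.49 without normalisation and -0.37 after division by the column sum, the RH39 probe 1.195 and 0.63 under median and 75th percentile centring, the shared probe of AT1G60000 and AT1G01080 0.36 under median centring, and AT4G09040 0.20 with array weights.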
